A study of Homo sapiens with 24 samples.

Results

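The pregnancy-specific glycoprotein (PSG) genes were examined in 3 human lines of ER+ breast cancer (positive for the estrogen receptor), cultured in low or high glucose. The members were the 10 human PSG genes PSG1 to PSG9 and PSG11, and each was looked up by its symbol among the 18889 genes of the deposited expression table. A row was found for 7 of the 10, namely PSG1, PSG3, PSG4, PSG5, PSG8, PSG9, and PSG11. PSG2, PSG6, and PSG7 were not analysed here. The family was chosen because PSG genes were already known to be among the largest increases with high glucose in these data. Their glucose differences are therefore given as a description, without a test. All 7 members with a row are described, whatever their level.

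PSG proteins are secreted, heavily glycosylated members of the immunoglobulin superfamily and belong to the same family as the carcinoembryonic antigen–related cell adhesion molecules (CEACAMs). The syncytiotrophoblast of the placenta makes them and releases them into maternal blood, where they become some of the most abundant trophoblast proteins late in pregnancy. They are known to act on immune cells, endothelial cells, and platelets, among other ways by activating latent TGF-β1 and by binding integrins and heparan sulfate proteoglycans. The normal breast epithelium is not known as a site of PSG production.

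HCC1500, ZR-75-30, and MDA-MB-175 are established ER+ breast carcinoma lines, and each was grown for 48 hours at 5 mM glucose (low glucose, the control condition) or 25 mM glucose (high glucose, the model of hyperglycemia). Per the study's methods, all cells were first conditioned in low glucose medium and both conditions were without serum. Each of the 6 groups had 4 sequenced cultures (n = 4 throughout unless stated), and the labels do not say whether these were set up separately, so the p-values below measure only the spread between these samples. No osmotic control is among these 24 samples, so glucose and osmolarity cannot be told apart. Values are normalized read counts as deposited. They are whole reads divided by 1 factor per sample, and 1 read was worth 0.318 to 0.763 depending on the sample. Samples held 9140024 to 17998819 reads, and a level of 3 reads per library (0.953 to 2.29 normalized read counts) was taken as the detection floor. In HCC1500 the low glucose libraries were deeper than all high glucose libraries (at least 13190982 against at most 12140912 reads). High glucose replicate 3 of HCC1500 stood apart from its group, with 24.7% of genes over 1 log2 unit from the other cultures against at most 1.42% in the other 23 libraries, and the PSG values, list counts, and named calls of HCC1500 are given with and without it. The luminal epithelial markers ESR1, GATA3, FOXA1, XBP1, KRT8, KRT18, KRT19, and EPCAM were expressed in every group, the lowest group mean being 258 for ESR1. With high glucose, 1 of these 8 was higher and 4 were lower in MDA-MB-175 by limma, where 25.7% of all genes were called, and 1 was higher and 6 lower in ZR-75-30, where 46.0% were. None of the 8 passed the test in HCC1500 (20.5% of all genes called), but 3 were higher and 5 lower there without replicate 3 (58.5%).

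The PSG genes lie side by side on the minus strand of chromosome 19, within 547.9 kb (GRCh37, chr19:43225790-43773682). In order of position they are PSG3 (ENSG00000221826, 43225790 to 43244633), PSG8 (ENSG00000124467, 43256838 to 43269830), PSG1 (ENSG00000231924, 43370616 to 43383974), PSG6, PSG7, PSG11 (ENSG00000243130, 43511808 to 43530626), PSG2, PSG5 (ENSG00000204941, 43670408 to 43690688), PSG4 (ENSG00000243137, 43696854 to 43711451), and PSG9 (ENSG00000183668, 43715943 to 43773682). The genes are so alike that a read can belong to several of them. This is shown by the first 90 coding bases of the 7 listed genes, which begin at the start codon and include the signal peptide region. They were read 5′ to 3′ from the GENCODE transcripts, and capitals mark the 15 positions at which the 7 genes are not all identical.
PSG3: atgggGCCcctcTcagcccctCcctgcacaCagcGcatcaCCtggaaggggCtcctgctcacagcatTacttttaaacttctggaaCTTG
PSG8: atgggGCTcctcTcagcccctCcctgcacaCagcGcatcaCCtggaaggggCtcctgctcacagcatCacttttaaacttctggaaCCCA
PSG1: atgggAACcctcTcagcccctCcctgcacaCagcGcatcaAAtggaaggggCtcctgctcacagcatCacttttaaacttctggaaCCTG
PSG11: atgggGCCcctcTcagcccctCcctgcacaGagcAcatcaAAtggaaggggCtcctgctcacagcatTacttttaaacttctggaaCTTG
PSG5: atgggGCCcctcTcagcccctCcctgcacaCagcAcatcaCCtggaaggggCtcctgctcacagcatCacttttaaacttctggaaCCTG
PSG4: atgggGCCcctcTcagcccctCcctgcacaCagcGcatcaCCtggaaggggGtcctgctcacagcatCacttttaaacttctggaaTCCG
PSG9: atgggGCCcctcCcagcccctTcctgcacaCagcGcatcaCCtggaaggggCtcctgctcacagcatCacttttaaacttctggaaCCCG
PSG4, PSG5, and PSG8 each differed from PSG9 at 4 of these 90 bases, whereas PSG3 differed at 5, PSG1 at 7, and PSG11 at 9. Over the whole coding region, identity between pairs of the 7 genes ran from 86.4% to 95.7%.

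How much of each transcript is shared was measured by cutting it into every possible window of 50 or 100 bases and asking whether the same window occurs in a transcript of another PSG or CEACAM gene. Of the 50-base windows, 40.3% of PSG8, 36.9% of PSG1, 33.1% of PSG3, 26.8% of PSG5, 26.5% of PSG11, 23.8% of PSG4, and 23.6% of PSG9 were shared. At 100 bases the shares were lower, between 2.05% (PSG9) and 16.2% (PSG1). PSG9 and PSG4 thus had the smallest shared part of the 7 genes at both window sizes, and PSG8 and PSG1 the largest. The read length of these libraries and the handling of reads with several matches are not given in the sources used here, so the values of single PSG genes are uncertain and the family sum is given beside them. Windows of PSG3 (16.6%), PSG8 (12.1%), PSG1 (16.7%), and PSG11 (3.78%) also occurred in PSG4, PSG5, or PSG9, which were more abundant in these cells. The exons of PSG5 also overlap 517 bases of PSG11-AS1 on the opposite strand, and the strand setting of the counting is not given either. PSG9 exons share 685 bases with the pseudogene CEACAMP10, which was listed at 0 in all groups.

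**Figure D1:**
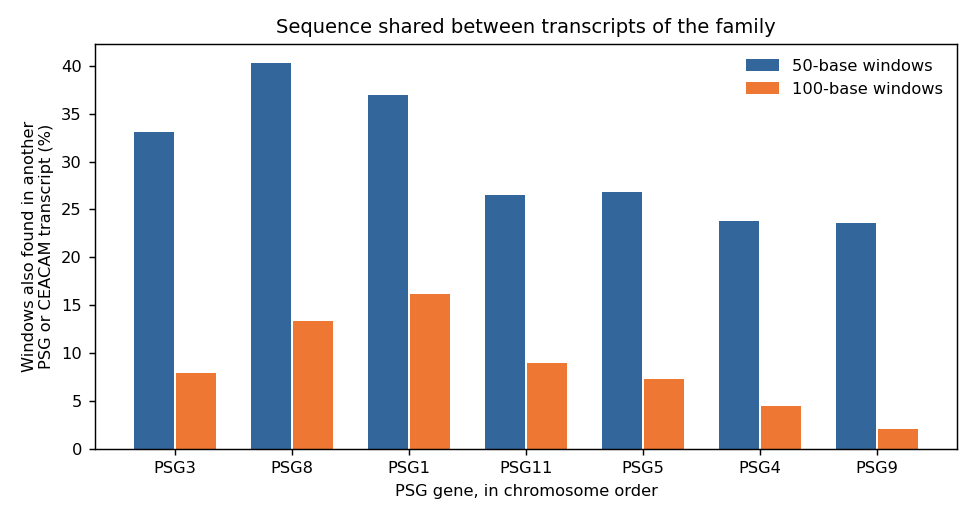
Share of each PSG transcript (%, y axis) whose 50-base (blue) or 100-base (orange) windows also occur in a transcript of another PSG or CEACAM gene, for the 7 listed genes in chromosome order (x axis). PSG8 had the largest shared part at 50 bases (40.3%) and PSG9 the smallest at both sizes (23.6% and 2.05%).

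Sequence upstream of the start site was at hand for PSG3, PSG5, and PSG4 only (RefSeq, GRCh38.p14, minus strand). The 100 bases before each start are shown because PSG promoters are known to lack a TATA box and to carry GC-rich elements, and because PSG5 and PSG4 were among the members with the most reads. Capitals mark a GC box (CCGCCC) or a CACCC box, the 2 kinds of element found.
PSG3, chr19:42740482-42740581: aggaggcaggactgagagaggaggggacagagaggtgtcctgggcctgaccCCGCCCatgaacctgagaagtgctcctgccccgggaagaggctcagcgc
PSG5, chr19:43186537-43186636: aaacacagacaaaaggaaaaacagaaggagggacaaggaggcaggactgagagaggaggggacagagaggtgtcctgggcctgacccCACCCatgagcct
PSG4, chr19:43205639-43205738: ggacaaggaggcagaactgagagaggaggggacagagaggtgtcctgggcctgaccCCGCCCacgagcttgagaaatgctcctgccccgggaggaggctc
The 3 promoters were 94.2% to 96.5% identical over their aligned bases. In windows from 250 bases before to 50 bases after the start, searched on both strands, the GC box GGGCGG was found in PSG3 (first base at -49) and PSG4 (-44) and the CACCC box in PSG5 (-13). In the stretch of sequence that the 3 genes share, PSG5 thus carries a CACCC box where PSG3 and PSG4 carry the GC box. Among all 35116 promoters of the same length, 45.0% held the GC box and 59.9% the CACCC box. The E-box CACGTG (7.26% of all promoters), the TATA box TATAA (20.4%), the AP-1 site TGANTCA (7.71%), and the xenobiotic response element core GCGTG (36.5%) were not found in the 3 windows. A match describes letters in this window and not a binding site.

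MDA-MB-175 cells had next to no PSG transcripts at low glucose and abundant ones at high glucose, mainly from PSG5, PSG9, and PSG4. PSG9, which is known to activate latent TGF-β1, had no read in any of the 4 low glucose cultures and 124, 108, 105, and 107 normalized read counts in high glucose replicates 1 to 4. PSG5 was at 1.204, 1.34, 0.569, and 0.509 at low glucose (1 to 3 reads per library) and at 141, 126, 125, and 144 at high glucose. PSG4 had no read at low glucose and 51.2, 72.7, 49.2, and 53.1 at high glucose. For these 3 genes, which sit next to each other at 1 end of the cluster, every high glucose culture was far above every low glucose culture, and the high glucose cultures lay close together except for the higher PSG4 value of replicate 2. The means at high glucose were 134 ± 9.92 (SD) for PSG5, 111 ± 9.0 for PSG9, and 56.5 ± 10.9 for PSG4. Against the floor of the low glucose libraries, PSG9 was at least 68.9-fold and PSG4 at least 35.1-fold higher at high glucose. PSG5 was 148-fold higher (0.905 to 134), with an exact 95% interval of 71.6 to 369 that covers counting error only, and its low glucose mean was under the floor. Each value averages over a culture, so more cells with PSG transcripts and more transcript per cell cannot be told apart.

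The remaining 4 members were scarce in MDA-MB-175. PSG3 had no read at low glucose and was at 3.74, 3.41, 5.47, and 2.63 at high glucose, at least 2.36-fold above the floor. PSG8 likewise went from no read to 2.50, 2.84, 1.95, and 4.73, at least 1.86-fold. Both were above 0 in every high glucose culture, on 5 to 14 reads per library. PSG1, which is known to bind integrins and to activate TGF-β1, had 2.08, 0, 0.390, and 1.58 at high glucose, and PSG11 had 0, 1.70, 1.17, and 1.05, with no read of either at low glucose. Their high glucose means (1.01 and 0.982) were under the floor, so no fold is given. In all, the conditions did not overlap for 5 of the 7 listed members, each higher at high glucose. Of all 17029 genes tested in this line, 12.7% were higher without overlap, and nothing is read from the comparison because the family was chosen on this contrast. The members just inside this criterion were PSG3 and PSG8, and those just outside were PSG1 and PSG11.

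**Figure D2:**
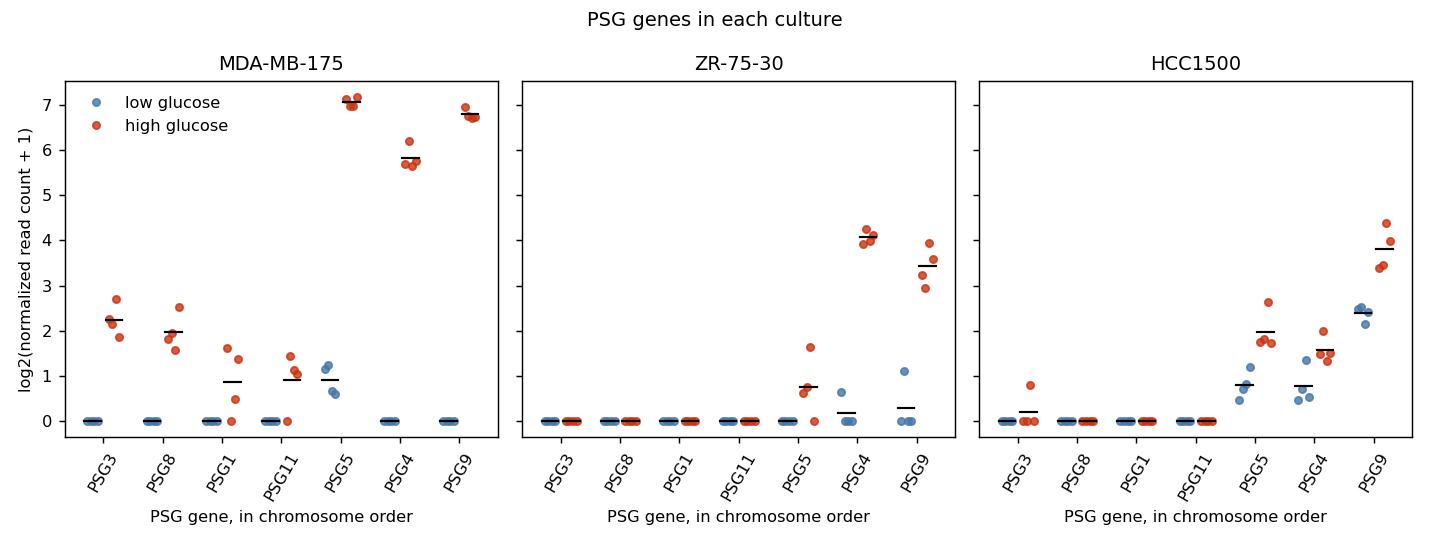
Log2(normalized read count + 1) of the 7 listed PSG genes in every culture (y axis), in chromosome order (x axis), with 4 low glucose (blue) and 4 high glucose (red) cultures per gene in each line and a bar at each group's mean. PSG5, PSG4, and PSG9 held most of the signal in all 3 lines, and the separation of the conditions was widest in MDA-MB-175 and narrowest in HCC1500.

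In ZR-75-30, PSG transcripts were again almost absent at low glucose, and at high glucose PSG4 and PSG9 were present at lower levels than in MDA-MB-175. PSG4 was at 0.554, 0, 0, and 0 at low glucose, which is 1 read in all, and at 14.1, 18.2, 14.9, and 16.4 at high glucose. PSG9 was at 0, 1.14, 0, and 0 at low glucose, 2 reads in 1 library, and at 8.33, 6.75, 14.4, and 10.97 at high glucose. No low glucose culture reached any high glucose culture for either gene. The mean of PSG4 went from 0.138 ± 0.277 to 15.9 ± 1.84, a ratio of 115 with an exact 95% counting interval of 20.2 to 4575. That of PSG9 went from 0.284 ± 0.569 to 10.1 ± 3.37, a ratio of 35.6 (interval 9.52 to 299). Both low glucose means were under the floor (1.84 on average over these libraries), so the ratios rest on 1 and 2 low glucose reads and cannot be set against the lower bounds of MDA-MB-175. PSG5, the member with the most reads in MDA-MB-175, was at 0.521, 0.675, 2.12, and 0 in the high glucose cultures of ZR-75-30 and had no read at low glucose. Its high glucose mean (0.830 ± 0.910) was under the floor. PSG1, PSG3, PSG8, and PSG11 had no read in any of the 8 ZR-75-30 libraries, so they were not detectable at this depth. Thus 2 of the 7 members were higher at high glucose without overlap, where 20.9% of the 15834 genes tested in this line were. The tested genes had passed a filter on level, whereas the 7 members include genes too low for it, in this line as in the others. Count and share are therefore not on the same base.

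HCC1500 differed in that PSG9 was already present at low glucose. PSG9 was at 4.56, 4.76, 3.45, and 4.31 at low glucose (9 to 15 reads per library) and at 9.44, 9.95, 20.05, and 14.8 at high glucose (16 to 32 reads). PSG5 was at 0.380, 0.635, 0.767, and 1.29 at low glucose and at 2.36, 2.49, 5.20, and 2.31 at high glucose. PSG4 was at 0.380, 0.635, 1.53, and 0.431 and then at 1.77, 2.98, 1.49, and 1.85. The conditions did not overlap for PSG9 and PSG5, and for PSG4 they overlapped in 1 culture, high glucose replicate 3, the library that stood apart. The mean of PSG9 went from 4.27 ± 0.578 to 13.6 ± 4.95, a ratio of 3.17 (exact 95% counting interval 2.21 to 4.62), or 2.67 (1.81 to 3.96) without replicate 3. The ratio was 4.02 (1.71 to 10.5) for PSG5 and 2.71 (1.08 to 7.39) for PSG4. Without replicate 3 these were 3.10 (1.22 to 8.54) and 2.95 (1.13 to 8.22). The low glucose means of PSG5 and PSG4 (0.769 and 0.745) were under the floor. PSG3 had 1 read in high glucose replicate 3, and PSG1, PSG8, and PSG11 had none in any HCC1500 library. The count without overlap was 2 of 7, or 3 of 7 without replicate 3, and 13.7% of the 16361 genes tested in this line were higher without overlap, or 3414 of 16235 without replicate 3. Library depth also differed between the conditions in this line, the high glucose libraries being the shallower ones, and its part in these values was not tested.

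Summed over the 7 listed members, the family reached 325, 315, 288, and 314 normalized read counts in the MDA-MB-175 high glucose cultures, against 1.204, 1.34, 0.569, and 0.509 at low glucose. In ZR-75-30 the sum was 22.9, 25.7, 31.4, and 27.4 at high glucose and 0.554, 1.14, 0, and 0 at low glucose. In HCC1500 it was 13.6, 15.4, 27.5, and 18.9 at high glucose and 5.32, 6.03, 5.75, and 6.03 at low glucose. High and low glucose did not overlap in any of the 3 lines. The sum does not depend on how reads were split among the 7 paralogs, but reads placed on PSG2, PSG6, or PSG7 or dropped for matching several genes are not in it. Its mean went from 0.905 ± 0.428 to 310 ± 15.7 in MDA-MB-175, a ratio of 343 (exact 95% counting interval 166 to 853). It was 63.5 (21.4 to 311) in ZR-75-30, where the mean went from 0.423 ± 0.543 to 26.9 ± 3.58, and 3.26 (2.39 to 4.48) in HCC1500, where it went from 5.78 ± 0.336 to 18.8 ± 6.17. Without high glucose replicate 3 the HCC1500 ratio was 2.76 (1.98 to 3.87). The ratios of MDA-MB-175 and ZR-75-30 rest on 7 and 3 low glucose reads, respectively. Of the 6 group means of the family sum added together, MDA-MB-175 at high glucose held 85.5%, ZR-75-30 at high glucose 7.39%, HCC1500 at high glucose 5.19%, and HCC1500 at low glucose 1.59%.

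The lines differed in which PSG genes made up the sum. Of the 2670 PSG reads of the MDA-MB-175 high glucose cultures, PSG5 held 43.3% (40.1% to 45.9% across the 4 cultures), PSG9 36.0% (34% to 38.3%), and PSG4 17.9% (15.7% to 23.1%). PSG3 (1.27%), PSG8 (0.936%), PSG1 (0.337%), and PSG11 (0.300%) shared the rest. Of the 196 reads of ZR-75-30 at high glucose, PSG4 held 57.7% (47.3% to 71.1%), PSG9 38.8% (26.3% to 45.9%), and PSG5 3.57% (0% to 6.76%). PSG4 was therefore the leading member in ZR-75-30 and the third in MDA-MB-175, and the ranges of its share in the lines did not overlap. PSG9 led in HCC1500, with 72.0% (64.5% to 78.0%) of 132 reads at high glucose and 74.2% (60% to 85.7%) of 62 reads at low glucose. Without replicate 3 the high glucose share of PSG9 was 71.6% of 95 reads. The HCC1500 shares of PSG9 overlapped between the conditions. At high glucose the reads of PSG9 per read of PSG4 were 1.48 to 2.43 in MDA-MB-175, 0.370 to 0.971 in ZR-75-30, and 3.33 to 13.5 in HCC1500, 3 ranges that do not overlap. The highest HCC1500 value was that of replicate 3, and without it the range was 3.33 to 8.0. Reads of PSG5 per read of PSG4 were 1.73 to 2.76 in MDA-MB-175, 0 to 0.143 in ZR-75-30, and 0.833 to 3.50 in HCC1500. The value of 3.50 was again that of replicate 3, on 2 reads of PSG4, and without it the HCC1500 range was 0.833 to 1.33, apart from both other lines.

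**Figure D3:**
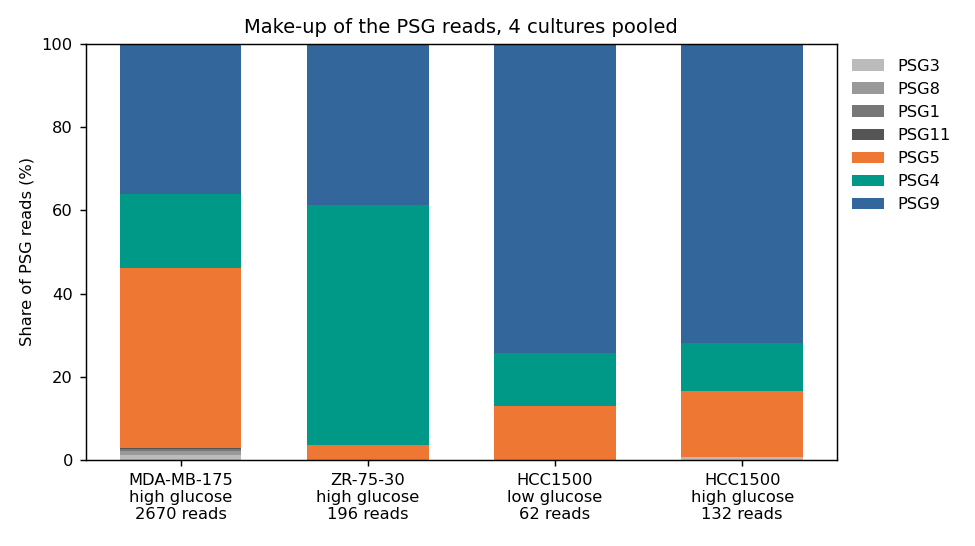
Share of the PSG reads (%, y axis) that each listed member held, with the reads of 4 cultures pooled, in the 4 groups with more than 10 PSG reads in all (x axis). PSG5 led in MDA-MB-175 at high glucose (43.3%), PSG4 in ZR-75-30 at high glucose (57.7%), and PSG9 in HCC1500 at both glucose levels (74.2% and 72.0%).

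Levels of different members were compared per kilobase of the GENCODE canonical transcript (1440 to 2062 bases among the 7). In MDA-MB-175 at high glucose the order was PSG5 (81.7 ± 6.05 normalized read counts per kb), PSG9 (65.03 ± 5.27), and PSG4 (27.8 ± 5.36), each apart from the next by more than the sum of their SDs. PSG8 (2.09 ± 0.839) and PSG3 (2.04 ± 0.639) followed and did not differ beyond their spread, nor did PSG11 (0.641 ± 0.466) and PSG1 (0.491 ± 0.474). In ZR-75-30 at high glucose, PSG4 (7.83 ± 0.905 per kb) and PSG9 (5.93 ± 1.97) were within the sum of their SDs. In HCC1500 at high glucose, PSG9 (7.94 ± 2.90 per kb) was above PSG5 (1.88 ± 0.859) and PSG4 (0.995 ± 0.325), which overlapped. Without replicate 3 these were 6.67 ± 1.72, 1.45 ± 0.0563, and 1.08 ± 0.335 (n = 3), with PSG5 and PSG4 still within the sum of their SDs. For PSG9 alone, MDA-MB-175 at high glucose ranked first by normalized read count, followed by HCC1500 (13.6) and ZR-75-30 (10.1) at high glucose, whose ranges overlapped, and then by HCC1500 at low glucose (4.27). For PSG4 the order was MDA-MB-175 (56.5), ZR-75-30 (15.9), and HCC1500 (2.02) at high glucose, with ranges that did not overlap.

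At low glucose alone, the control condition, PSG9 was the member that set HCC1500 apart. These samples are 1 side of the contrast on which the family was chosen, so the levels are a description, with no test. All 4 HCC1500 cultures (3.45 to 4.76) were above all cultures of ZR-75-30 (0 to 1.14) and of MDA-MB-175 (no read). Only the HCC1500 mean of PSG9 was above the floor, and the low glucose means of the other 6 members were under the floor in all 3 lines. PSG5 had 1 to 3 reads in each MDA-MB-175 and HCC1500 library and none in ZR-75-30.

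The genes around the cluster were examined to see whether the change reached beyond the PSG genes. Within 1 Mb of the outer ends of the cluster, 69 other genes were listed. In MDA-MB-175, 10 of 64 tested were higher and 7 lower at high glucose by limma (25.7% of all 17029 genes were called in either direction), and the median log2 change of the 64 was 0.00 against -0.02 over all genes. The 10 higher genes included CEA, CEACAM1, CEACAM3, CEACAM5, and CEACAM6, and all of these but CEA are also in the CEACAM counts below. In ZR-75-30, 10 of 61 were higher and 9 lower (46.0% of 15834 genes called, medians 0.05 and 0.01). In HCC1500, 5 of 62 were higher and 6 lower (20.5% of 16361 genes called, medians 0.06 and -0.06), a split that became 8 higher and 5 lower after median-of-ratios rescaling. Without high glucose replicate 3 of HCC1500 the count was 16 higher and 19 lower, in a fit that called 58.5% of all 16235 genes. With all cultures kept, the neighbors thus moved in both directions in each line, at shares of calls near or below those of all genes. The nearest tested gene, CTB-50E14.6 (69.3 kb from the cluster), passed the test in no line, with log2 changes of -0.01, 0.16, and 0.28. CD177, 84.2 kb away on the other side, was too low to be tested.

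Among the neighbors in MDA-MB-175, the 3 that rose most were POU2F2, PLAUR, and CEACAM1. POU2F2, which encodes a B-cell transcription factor, changed by 1.10 ± 0.38 (SE) on the log2 scale (adjusted p = 0.0425, a call lost in 10 alternatives), and PLAUR, the urokinase receptor, by 0.93 ± 0.16 (adjusted p = 5.07e-04). CEACAM1, an adhesion receptor of the same family as the PSGs and 160.4 kb from the cluster, rose from 369 ± 17.5 to 634 ± 12.96 (0.78 ± 0.05, adjusted p = 6.63e-09). PAFAH1B3 (-0.48) and LYPD3 (-0.40) were among the genes that fell there. In ZR-75-30, PHLDB3 (0.73), ZNF224 (0.60), and CEACAM1 (157 to 221, log2 change 0.49 ± 0.06) rose most, and LIPE, the hormone-sensitive lipase (-1.28), TMEM145 (-1.03, a call lost in 6 alternatives), and PAFAH1B3 (-0.64) fell most. In HCC1500, KCNN4, a calcium-activated potassium channel (1.5), AC084219.4 (1.19), and ZNF155 (0.51) rose most, and CEACAM1 (50.3 ± 8.44 to 21.8 ± 2.43, log2 change -1.16 ± 0.16, adjusted p = 0.0016) and LYPD5 (-1.12) fell most. These 5 calls of HCC1500 held without high glucose replicate 3, with log2 changes of 1.28 for KCNN4, 1.35 for AC084219.4, 0.46 for ZNF155, -1.14 for CEACAM1, and -1.08 for LYPD5. On the same scale the differences of PSG5, PSG4, and PSG9 were 6.17, 5.83, and 6.80 in MDA-MB-175, and 1.18, 0.81, and 1.41 in HCC1500, below the 1.5 of KCNN4 there.

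**Figure D4:**
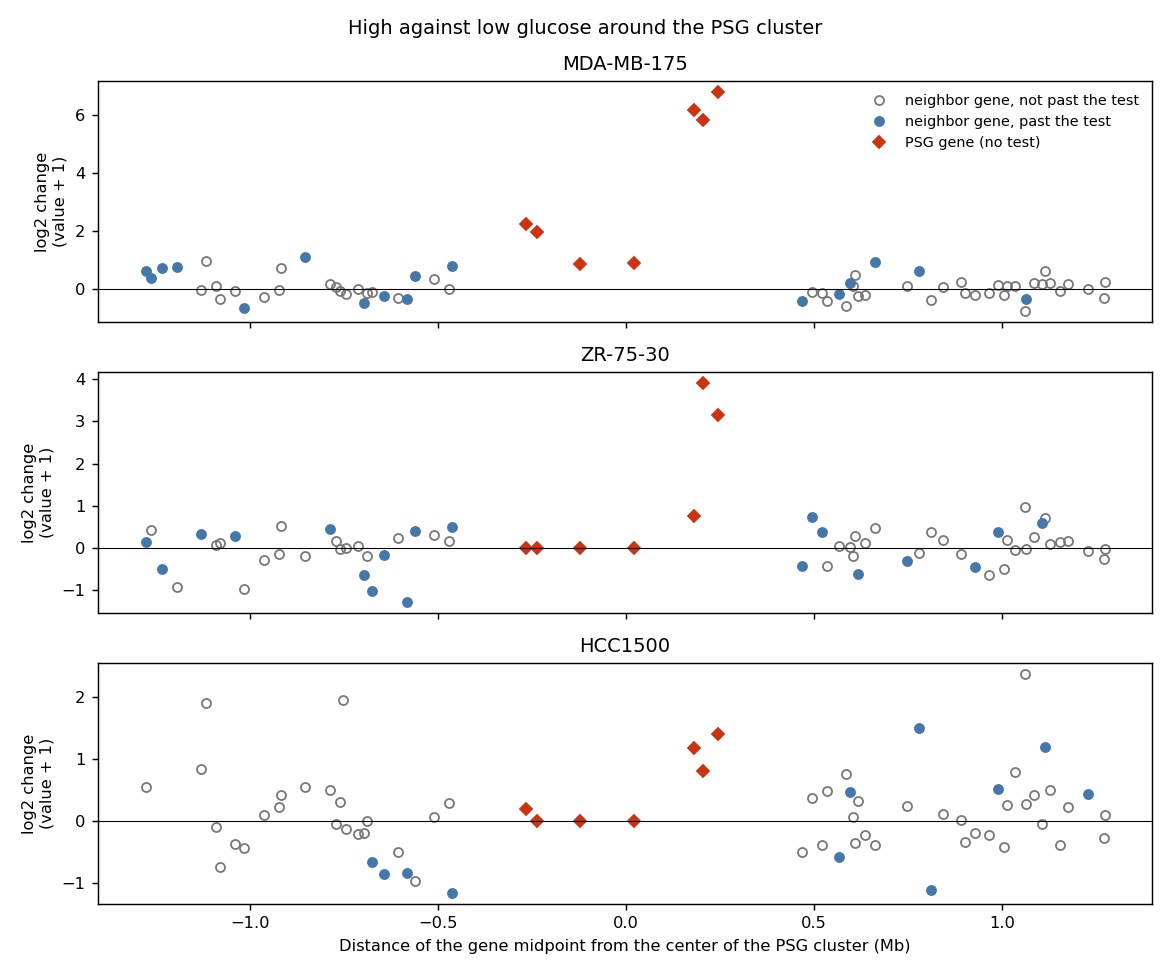
Log2 change (high minus low glucose, on log2(value + 1), y axis) of the listed PSG genes (red diamonds, no test) and of the tested genes within 1 Mb of the cluster (filled where the limma test was passed) against the distance of the gene midpoint from the center of the cluster (Mb, x axis), 1 panel per line with its own y axis. In MDA-MB-175 PSG5, PSG4, and PSG9 lie at 5.83 to 6.80 while the neighbors named in the text lie between -0.48 and 1.10.

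Of the other CEACAM genes, which are the closest relatives of the PSGs, 7 of 12 were listed. In MDA-MB-175, 6 of 7 tested (85.7%, against 25.7% of all genes) were called at high glucose, all of them higher, among them CEACAM5 (5229 ± 152 to 7969 ± 246) and CEACAM6 (1713 ± 55.1 to 2850 ± 67.5). The list was chosen with earlier results of these data known, so nothing is read from this share. In ZR-75-30, 2 were higher and 2 lower, 57.1% of the 7 against 46.0% of all genes, with CEACAM6 falling from 11177 ± 145 to 7922 ± 285 (log2 change -0.50). In HCC1500, 1 of 4 tested was higher (CEACAM19) and 2 were lower (CEACAM1 and CEACAM7), against 20.5% of all genes called, and the same 3 were called without high glucose replicate 3 (58.5%). The summed level of the 7 genes was 7207 to 7573 at low and 11234 to 11968 at high glucose in MDA-MB-175, 13871 to 14366 and 10938 to 11639 in ZR-75-30, and 49.95 to 67.7 and 33.3 to 44.6 in HCC1500. The CEACAM sum and the PSG sum thus moved in the same direction in MDA-MB-175 and in opposite directions in the other 2 lines. CEACAM6 made up most of the sum in ZR-75-30, and CEACAM1 (50.3 to 21.8) most of it in HCC1500. The falls of the sum there were mainly falls of these genes. In ZR-75-30, CEACAM1 and CEACAM5 were called higher while CEACAM6 and CEACAM7 were called lower. Medians of the log2 changes were 0.77, 0.13, and -0.31.

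Transcription factors known to act at PSG promoters through GC-rich elements and GABP sites were all 7 listed and tested in each line. These were KLF4, KLF6, SP1, SP3, RXRA, GABPA, and GABPB1. In MDA-MB-175, 2 were higher and none was lower (28.6% of 7, against 25.7% of all genes). KLF6, a Krüppel-like factor that binds GC boxes, rose from 141 ± 13.2 to 209 ± 11.1 (0.57 ± 0.08, adjusted p = 3.59e-05), and KLF4, which binds CACCC and GC elements, rose from 260 ± 18.4 to 342 ± 22.96 (0.40 ± 0.06, adjusted p = 2.40e-04). In ZR-75-30, 2 were higher and 2 lower (57.1% against 46.0%), with KLF6 going from 463 ± 13.8 to 531 ± 13.9 (0.20 ± 0.04, adjusted p = 0.00112), GABPA rising by 0.30 (a call lost in 1 alternative), and GABPB1 (-0.29) and SP3 (-0.16) falling. KLF4 was at 540 and 529 in ZR-75-30 and did not pass the test. In HCC1500 only KLF4 passed (14.3% against 20.5%), from 38.5 ± 4.07 to 81.4 ± 15.7 (1.05 ± 0.15, adjusted p = 0.00219). Without high glucose replicate 3 its log2 change was 0.92, and the count was 3 higher and 2 lower where 58.5% of all genes were called. With all cultures kept, SP1 and RXRA passed in no line, and no factor of the list was called in all 3 lines. Without high glucose replicate 3 of HCC1500, SP1 (-0.19) and RXRA (-0.10) were the 2 lower factors there. KLF6 (0.12, limma's adjusted p = 0.00971) was then among the 3 higher ones, and so was called higher in all 3 lines. The median log2 changes of the 7 genes were 0.09, -0.03, and 0.01, against -0.02, 0.01, and -0.06 over all genes.

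Other genes of the placental trophoblast, the cell type known for PSG production, were examined next. Of 43 such genes 24 were listed. In MDA-MB-175, 7 of 20 tested were higher and 2 lower, which is 45% against 25.7% of all genes (median log2 change 0.08 against -0.02 over all genes). This list too was chosen with earlier results of these data known, so the share is a description. ALPP, the placental alkaline phosphatase, rose from 11.9 ± 3.03 to 98.0 ± 8.57 (2.97 ± 0.17, adjusted p = 4.04e-09). CGA, the alpha subunit of chorionic gonadotropin and the pituitary glycoprotein hormones, rose from 38.5 ± 5.74 to 131 ± 9.04 (1.75 ± 0.11, adjusted p = 1.11e-08), and CYP19A1, the aromatase that makes estrogen, rose from 1.26 ± 0.783 to 4.96 ± 1.16 (1.44 ± 0.34, adjusted p = 0.00446). The low glucose mean of CYP19A1 was under the floor (1.61 on average over these libraries). The falls were in PEG10, an imprinted retrotransposon-derived gene (8013 ± 328 to 6052 ± 269), and in TFAP2A, a transcription factor that breast epithelium also expresses (297 ± 11.6 to 228 ± 10.6). Because PEG10 made up most of the list's sum, that sum fell from 10118 to 10664 at low glucose to 8864 to 9285 at high glucose while PSG transcripts were higher.

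In ZR-75-30, 3 of 16 placental genes were higher and 3 lower, which is 37.5% against 46.0% of all genes (median 0.02 against 0.01). ERVV-2, an endogenous retroviral envelope gene (1.62 ± 0.28), TFPI2, a serine protease inhibitor (1.5 ± 0.25), and GATA2 (0.73 ± 0.07) rose, and PEG10 (-1.67 ± 0.03), TEAD4 (-0.57 ± 0.08), and EPS8L1 (-0.18 ± 0.05) fell. The list's sum was 12054 to 12446 at low and 4974 to 5063 at high glucose. In HCC1500, 2 of 17 were higher and 2 lower, which is 23.5% against 20.5% (median 0.03 against -0.06). Without high glucose replicate 3 the numbers were 3 and 5 where 58.5% of all genes were called. CGA rose there from 1.28 ± 0.562 to 14.6 ± 7.11 (2.70 ± 0.34, adjusted p = 0.00103) and TFPI2 from 70.7 ± 5.69 to 225 ± 67.5 (1.62 ± 0.19, adjusted p = 6.23e-04), and the transcription factors TFAP2C (-0.48) and TFAP2A (-0.41) fell. Without replicate 3 these 4 calls held, with log2 changes of 2.43 for CGA and 1.43 for TFPI2. The sum was 15998 to 16128 at low and 8776 to 13082 at high glucose, and it is not given without replicate 3. PEG10, which made up most of it, changed by -0.52 ± 0.20 with all cultures (not called). Without that library it changed by -0.30 and was called (limma's adjusted p = 7.80e-10). With all cultures kept, TFPI2 was the placental gene called in all 3 lines. Without that library PEG10 was called in all 3 lines too, lower in each. Of the 6 genes taken as defining trophoblast, CGA behaved as above, CSH1 and ERVW-1 were not analysed here, ERVFRD-1 averaged at most 0.124 in any group, PAPPA2 at most 0.813, and GCM1, the factor that drives syncytiotrophoblast formation, at most 2.48 (HCC1500 at high glucose, where limma's adjusted p was 0.0561, or 0.00394 without replicate 3). The part of placental gene expression in the PSG differences was not tested.

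Partners of PSG proteins, that is ligands, receptors, and glycosaminoglycan carriers that PSGs are known to bind or to act on, were listed for 17 of 18 genes. In MDA-MB-175, 4 of 17 tested were higher and 4 lower (47.1%, against 25.7% of all genes). TGFB2 rose from 16.2 ± 2.97 to 46.5 ± 8.65 (1.47 ± 0.18, adjusted p = 1.16e-05), VEGFA, the vascular growth factor that PSG-treated cells are known to secrete, from 163 ± 14.7 to 338 ± 19.2 (1.05 ± 0.07, adjusted p = 1.76e-08), and the receptor TGFBR2 from 38.4 ± 4.73 to 62.0 ± 6.36 (0.68 ± 0.12). LGALS1, a galectin that binds PSG1 (-0.58), the tetraspanin CD9, a receptor described for mouse PSG17 (-0.38), and the proteoglycan SDC1 (-0.29) fell. In ZR-75-30, 6 of 16 were higher and 3 lower (56.3% against 46.0%). TGFB2 (2.88 ± 1.86 to 16.8 ± 2.19, log2 change 2.35 ± 0.35), the syndecan SDC2 (2.14 ± 0.27), and TGFB1 (1.11 ± 0.37, a call lost in 3 alternatives) had the largest rises, and GPC4 (-0.33), CD9 (-0.25), and TGFBR1 (-0.14, a call lost in 7 alternatives) fell.

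In HCC1500, 2 of 16 partner genes were higher and 3 lower (31.3%, against 20.5% of all genes), a split that became 3 and 3 after median-of-ratios rescaling and 1 and 3 after rescaling to library totals. VEGFA rose from 682 ± 31.5 to 1033 ± 14.4 (0.60 ± 0.07, adjusted p = 6.30e-04) and TGFB2 from 114 ± 5.59 to 167 ± 21.3 (0.54 ± 0.11, adjusted p = 0.0118, a call lost in 2 alternatives). The integrin subunit ITGA2B (-1.51), GPC4 (-0.89), and SDC1 (-0.58, a call lost in 8 alternatives) fell. Without high glucose replicate 3 the counts were 4 higher and 8 lower where 58.5% of all genes were called, and these 5 genes were among them, with changes from -1.65 (ITGA2B) to 0.62 (TGFB2). With all cultures kept, TGFB2 and VEGFA were the partner genes called in all 3 lines, both higher. The HCC1500 call of TGFB2 was one of those lost in alternatives. CD9, called lower in the other 2 lines, changed by -0.15 in HCC1500 with all cultures (not called). Without high glucose replicate 3 it changed by -0.35 (limma's adjusted p = 2.13e-09) and so was called lower in all 3 lines. The median log2 change of the partners was -0.06 in HCC1500 (-0.06 over all genes), 0.13 in ZR-75-30 (0.01), and -0.01 in MDA-MB-175 (-0.02).

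**Figure D5:**
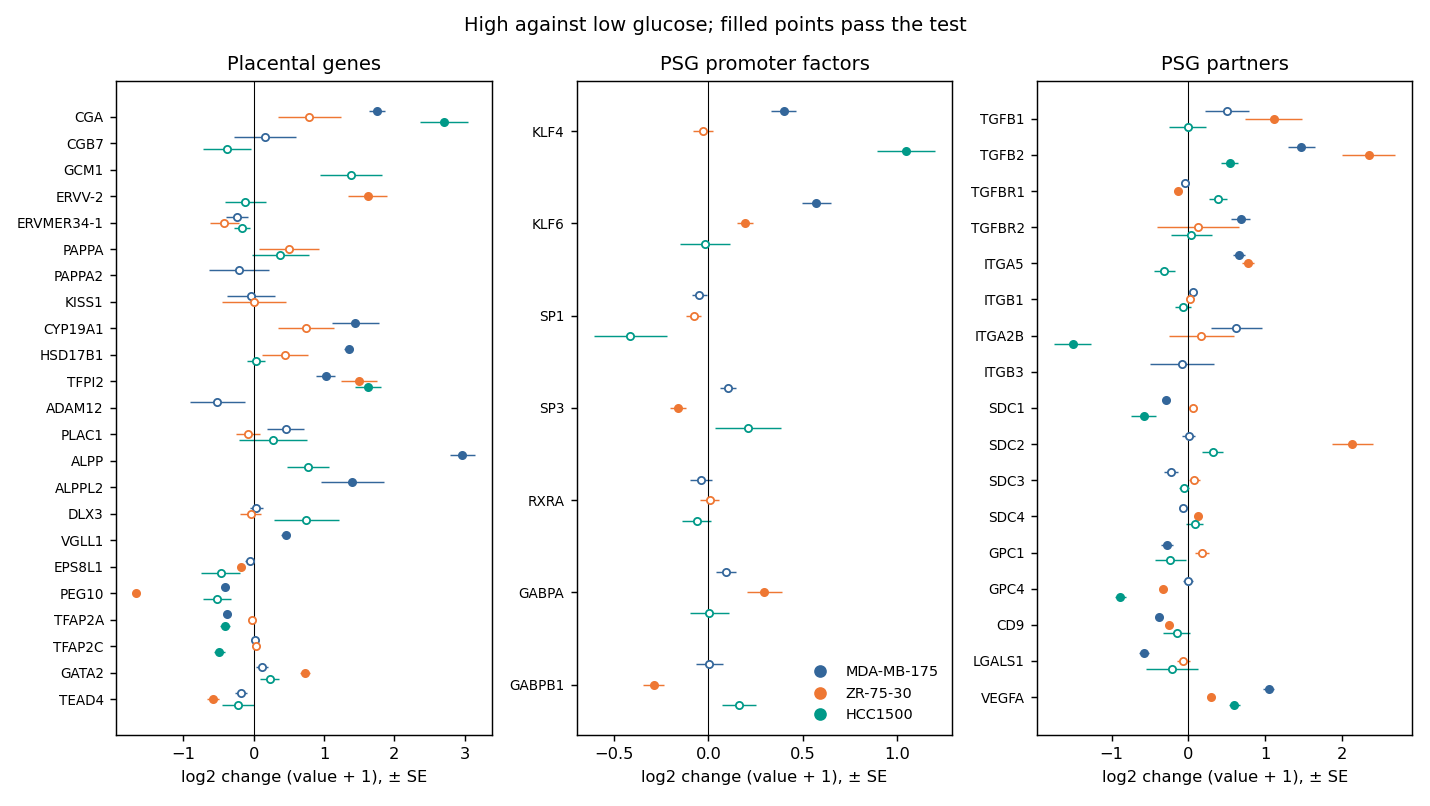
Log2 change (high minus low glucose, on log2(value + 1), ± SE, x axis) of tested placental genes (left), factors that act at PSG promoters (center), and partners of PSG proteins (right) in MDA-MB-175 (blue), ZR-75-30 (orange), and HCC1500 (green), filled where the limma test was passed. TFPI2, TGFB2, and VEGFA are filled in all 3 lines, and each is to the right of 0.

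The genes whose pattern over the 6 groups was nearest to that of the PSG sum were found by expressing each gene's 6 group means as shares of their own total and taking the summed absolute difference of the shares, divided by 2. Among 16064 genes with a highest group mean of at least 5, the nearest were SLAMF7, a receptor of lymphocytes (distance 0.0715), the unnamed gene AC090425.1 (0.0910), CES1, a carboxylesterase of the liver (0.108), ALPP (0.122), and the long noncoding RNA UCA1 (0.127). All 5 were highest in MDA-MB-175 at high glucose, which follows from choosing them by nearness to the PSG sum. From low to high glucose in that line, SLAMF7 went from no read to 8.20 ± 3.29, CES1 from 1.28 ± 0.720 to 22.4 ± 2.84, and UCA1 from 45.3 ± 5.34 to 962 ± 39.9. In ZR-75-30 at high glucose SLAMF7 averaged 1.01 ± 0.538 and CES1 0.750 ± 0.899, both under the floor, and the other 3 had no read. None of the 5 was at or above the floor in HCC1500 at low glucose except UCA1 (1.85 ± 1.28), whereas the PSG sum was 5.78 there.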

How the data were processed

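Groups came from the sample titles and treatment labels. Per the study's methods, the authors isolated RNA with the RNeasy Plus kit and sequenced it on an Illumina HiSeq. The methods give paired-end stranded libraries, Trimmomatic, and TopHat against hg19 with the Ensembl v70 annotation for the tumors of the study, and do not say that they hold for the cell lines. The submitters' processing notes for these samples name hg38 and edgeR. The read length, aligner, and counting tool of these samples are not given in the sources used here. The authors deposited a normalized signal per gene and sample, in which each value equals a whole read number over a sample-wide factor (100% of values within 0.01 of a whole number). The factor was not identified. The log2(value + 1) data of each line's 8 samples were modeled by limma (3.58.1, R 4.3.3) without covariates and with a variance trend over intensity, for genes with at least 0.5 in at least 4 samples. Planned tests between lines over the 12 low glucose samples are not reported, because these samples took part in the choice of the family. A gene was called when its p, adjusted by Benjamini-Hochberg over all genes tested, was under 0.05. Log2 changes understate those of low genes. Alternatives changed the pseudocount, filter, and scaling, used edgeR 4.0.16 or DESeq2 1.42.0 on the recovered reads, added a replicate block, or left out 1 sample. Fold intervals are exact conditional binomial intervals (95%) on pooled reads. The floor of 3 reads and these intervals cover counting error only. The limma, edgeR, and DESeq2 fits were tested on simulated data, which held no library that stood apart. Coordinates are GRCh37 (GENCODE 44 lifted); promoters are RefSeq GRCh38.p14.

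The members and gene lists were chosen with earlier results of these data known, so the shares of calls in the lists are given as a description. Named genes were all members, every called gene of a list with 5 or fewer calls, up to 3 largest rises and 3 largest falls of longer lists, and the 5 genes nearest in pattern. CEACAM genes, CTB-50E14.6, and CD177 were named after their values were seen. CSH1, ERVW-1, PSG2, PSG6, and PSG7 were not analysed here. Some results for genes near the cluster are not reported here.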

Additional observations from a re-analysis of the deposited data

Results flagged for a closer look

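A sample was set apart when its gap to the nearest other culture of its group was a large part of the group's range (Dixon's 95% criterion), which chance gives in about 1 of 20 groups. Among 15 groups of PSG values and 114 groups of named genes, 11 such samples were found. PSG4 in MDA-MB-175 high glucose replicate 2 was at 72.7 against a mean of 51.2 in the other 3 cultures (gap share 0.834), and PSG9 in replicate 1 of the same group was at 124 against 107 (0.850). Both lie far above the low glucose cultures with or without these samples. PSG5 in HCC1500 high glucose replicate 3 was at 5.20 against 2.39 (0.938). TFPI2 (326 against 192, gap share 0.877), KLF4 (105 against 73.6, 0.878), and SDC1 (313 against 191, 0.960) were set apart in the same library, the one that stood apart over all genes. The other samples were CGA in MDA-MB-175 high glucose replicate 2 (145 against 127, 0.895), PHLDB3 (85.0 against 110, 0.900) and ZNF224 (130 against 98.4, 0.843) in ZR-75-30 high glucose replicate 4, CEACAM1 in HCC1500 high glucose replicate 4 (25.4 against 20.6, 0.843), and LYPD5 in HCC1500 high glucose replicate 1 (6.49 against 3.48, 0.852).

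CEACAM1, the adhesion receptor 160.4 kb from the PSG cluster, moved in opposite directions. High glucose cultures were all lower in HCC1500, but all higher in both ZR-75-30 and MDA-MB-175. The log2 changes differed by 1.94 between MDA-MB-175 and HCC1500 and by 1.66 between ZR-75-30 and HCC1500. These differences were not tested.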

How the results depend on the processing

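The family sum and the counts of non-overlapping members were rerun only with the values rescaled or with 1 culture left out. The direction of each held. The conditions of the sum did not overlap in any line, so leaving out 1 culture could not reverse its direction, and nothing is read from this. On the log2 scale the ratio of the family sum was 8.42 in MDA-MB-175 and ranged from 8.22 to 8.67 when 1 culture was left out. It was 5.99 in ZR-75-30 and ranged from 5.57 to 7.18, the highest value without low glucose replicate 2, which held 2 of the 3 low glucose reads, and 5.57 without low glucose replicate 3 or 4. In HCC1500 it was 1.70 and ranged from 1.47 to 1.83. In HCC1500 the list counts depended on high glucose replicate 3. Leaving out 1 culture gave 4 to 8 placental genes (main count 4), 1 to 5 promoter factors (1), 4 to 12 partners (5), and 6 to 35 neighbors (11), each highest without that library. The neighbors numbered 7 without low glucose replicate 1 or 2 and 6 without low glucose replicate 4. In MDA-MB-175 the promoter factors numbered 2 to 4 (2), the highest without low glucose replicate 4. The cause was not tested. With the replicate number as a block, HCC1500 partners numbered 3 and neighbors 7, and no other count moved by over 1.5 times. Cultures with the same number had mean correlations of 0.05, 0.04, and 0.02 in the 3 lines, so the numbers were not taken as pairs. Of the single genes named, none changed direction, and the call was lost in 38 gene and setting pairs. These were POU2F2 in MDA-MB-175 (adjusted p 0.0523 to 0.132 where lost), GABPA (0.0537), TGFB1 (0.0573 to 0.0715), TGFBR1 (0.0501 to 0.0729), and TMEM145 (0.0530 to 0.105) in ZR-75-30, and SDC1 (0.0740 to 0.104), TGFB2 (0.0547 with the block, 0.0925 when rescaled to library totals), and ZNF155 (0.0503) in HCC1500. Depth limits the scarce members: group means were under the floor of 3 reads per library for PSG1 and PSG11 in all groups, for PSG3 and PSG8 outside MDA-MB-175 at high glucose, for PSG5 in ZR-75-30 and at low glucose, for PSG4 at low glucose, and for PSG9 at low glucose outside HCC1500.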
